A study of Mus musculus with 13 samples.

Results

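The lower arm of glycolysis, the pyruvate dehydrogenase (PDH) complex with its kinases and phosphatases, and the tricarboxylic acid (TCA) cycle were described in mouse brown adipose tissue as 35 genes picked by symbol: 9 enzymes of lower glycolysis and lactate formation, 3 genes of pyruvate entry, 5 PDH subunits, 6 PDH kinases and phosphatases, and 12 genes of the TCA cycle. All 35 symbols were found among 55357 gene identifiers, and 34 were among the 11073 genes with enough counts to test. Pdk3 was not, with 1 to 9 counts in each library. KO mice (Stim1/2_Adp-Cre) carried floxed Stim1 and Stim2 alleles and Adp-Cre, a Cre recombinase driven by the adiponectin promoter and so active in adipocytes. STIM1 and STIM2 are calcium sensors of the endoplasmic reticulum that open plasma membrane channels at contacts between both membranes. Control mice (Stim1/2_fl/fl) carried the same floxed alleles without that Cre. Tissue came from 4 KO and 4 control samples kept at 4 °C for 6 h (cold) and from 3 KO and 2 control samples kept at room temperature (RT). Strain, age and whether each sample was a separate animal were not in the labels, so each p-value rests on the spread among these samples alone, part of which may be technical.

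Lower glycolysis turns triose phosphates into pyruvate, which lactate dehydrogenase can reduce to lactate or the mitochondrial pyruvate carrier can bring into the matrix. There the PDH complex makes acetyl-CoA for the TCA cycle. PDH kinases (Pdk genes) switch the complex off by phosphorylation and PDH phosphatases (Pdp genes) switch it on again. The genes grouped here as lower glycolysis and lactate also include Gpi1 and Aldoa, whose enzymes act before the triose phosphates. Pkm, the pyruvate kinase, is not among them and was counted in a further list. In brown fat, cold raises the use of fatty acids and glucose for heat, and matrix calcium is known to stimulate the phosphatase PDP1, isocitrate dehydrogenase 3 and oxoglutarate dehydrogenase as enzymes.

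Libraries of 3′ end tags held 1570684 to 2016178 counts (median 1800685). Levels are given as CPM, the count scaled to a common library size and composition, and libraries are listed in the order of their replicate numbers, which have no other meaning. In the cold, Stim1 was at 91.2 ± 13.6 CPM in KO samples, against 124 ± 8.68 CPM in control samples (SD, n = 4 each), and 74.0 ± 12.1 CPM in KO RT and 138 ± 16.9 CPM in control RT (n = 3 and n = 2). Stim2 was at 22.9 ± 7.05 CPM in KO cold, against 42.7 ± 12.8 CPM in control cold, and at 22.8 ± 2.18 CPM in KO RT, against 34.7 ± 8.07 CPM in control RT. A 3′ tag need not lie in the deleted stretch, and cells other than adipocytes keep the gene. The part of either in the remaining KO signal was not tested. Markers of brown adipocytes, 8 of 8 tested, were detected in every group, with a summed level of 13919 to 14389 CPM in KO cold, 14095 to 17030 in control cold, 9257 to 10579 in KO RT and 9875 to 10772 in control RT. Of the 8, 2 passed as higher in cold than at RT in each genotype, Ucp1 and Elovl3. Of all genes, 12.7% passed as higher in control tissue and 9.43% in KO tissue. In cold over RT, 4 were above and 4 below 0 in control tissue, and 6 above and 2 below in KO tissue. Several libraries stood apart over the genes described here. KO cold 1 was the highest of its group for 19 of 34 genes (23.6% of all genes tested), control cold 2 for 26 of 34 (25.6%), KO RT 3 for 28 of 34 (35%) and control RT 1 for 30 of 34 (50.9%). The lowest of their groups most often were KO cold 2 and 3 with 15 of 34 genes each, control cold 1 with 18, KO RT 2 with 21 and control RT 2 with 30. The share of all genes was not counted for the lowest library. With 2 control RT libraries, the 30 lowest in control RT 2 restate the 30 highest in control RT 1. Skeletal muscle transcripts differed widely between libraries: the 14 muscle markers summed to 6.12 to 353 CPM in KO cold, 5.56 to 269 in control cold, 104 to 1675 in KO RT, and 2626 and 28.3 in control RT 1 and 2, with none of the 14 at 0 over a group. In bulk tissue, fewer cells of a type and less RNA per cell cannot be told apart.

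In the cold, 1 of these 34 genes passed the test between genotypes (2.94%, against 5.93% of all genes). Pdk2, a PDH kinase, was higher in KO than in control (2.44% of all genes were higher). Of the 34, 0 were lower (3.49% of all genes were lower). Each difference is a log2 fold change with its standard error from edgeR's quasi-likelihood test over all 13 libraries, and a gene passed at a Benjamini-Hochberg adjusted p under 0.05 over all 11073 genes. The difference was below 0 for 22 of the 34 genes (50.6% of all genes) and above 0 for 12, with a median of -0.12, against -0.01 for all genes tested; 12 of the 34 had an unadjusted p under 0.05, against 20.1% of all genes. The roles differed in their medians: -0.35 for lower glycolysis and lactate (9 of 9 below 0), -0.47 for pyruvate entry, -0.15 for the PDH subunits (5 of 5 below 0), -0.21 for the kinases and phosphatases and 0.06 for the TCA cycle (9 of 12 above 0). Without control cold 2 the glycolytic median was -0.24. KO and control libraries in the cold did not overlap for 2 genes that were higher in KO, Pdk2 and Ogdh (6.28% of all genes tested), and for 5 that were lower in KO, Aldoa, Mpc2, Pdp2, Idh3a and Fh1 (6.53% of all genes).

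**Figure D1:**
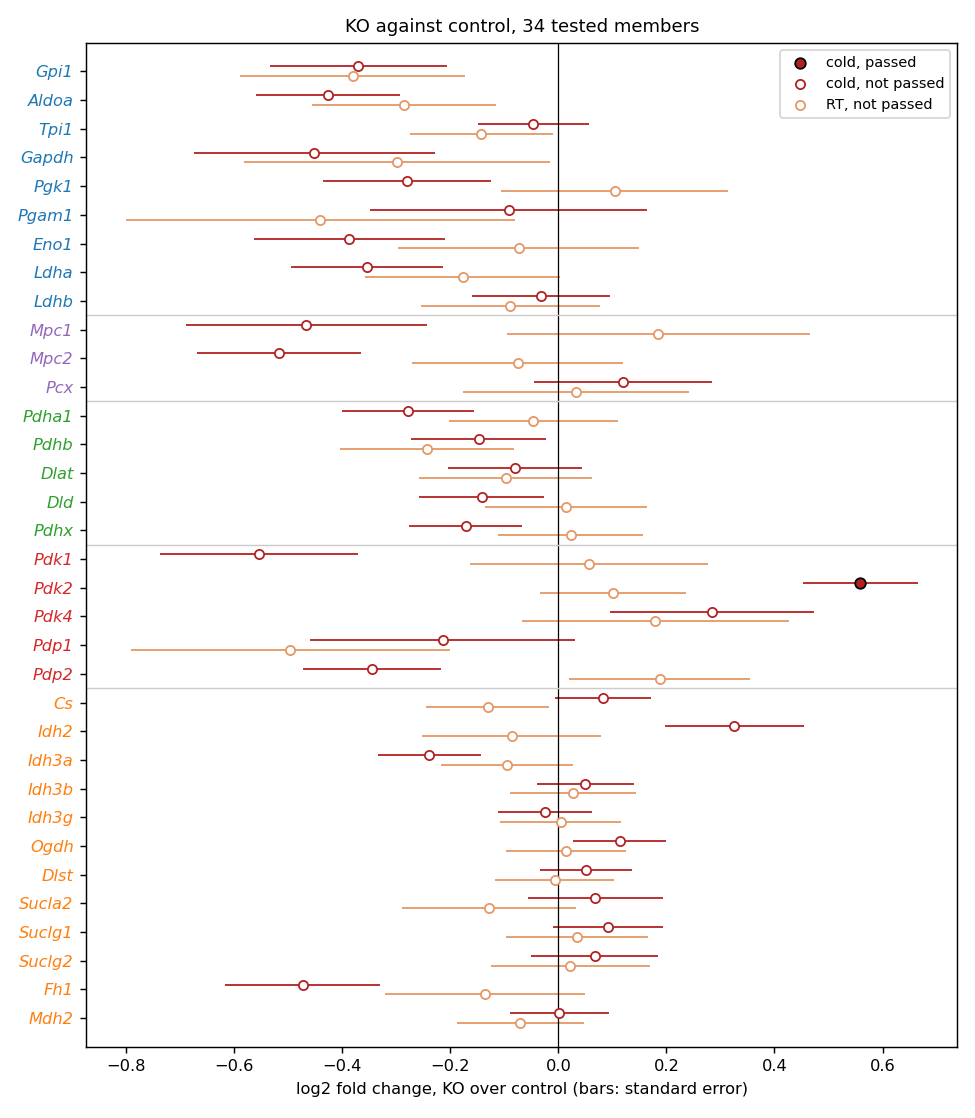
Log2 fold change of KO over control (x axis) with its standard error for the 34 tested genes, arranged by role, in the cold and at RT. Filled markers show genes with an adjusted p under 0.05; Pdk2 in the cold, at 0.56, is the filled one.

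Pdk2, whose product phosphorylates and inactivates the PDH complex, had 187, 191, 156 and 177 CPM in KO cold, 125, 121, 129 and 106 in control cold, 167, 157 and 174 in KO RT, and 159 and 151 in control RT. Every KO cold library lay above every control cold library, while KO RT and control RT libraries overlapped. The mean in the cold was 178 ± 15.7 CPM in KO and 120.4 ± 10.2 CPM in control (SD, n = 4 each), a log2 fold change of 0.56 ± 0.11 (adjusted p = 0.00503). Pdk2 passed in each of 19 alternative analyses, which left out each library in turn, among others, with adjusted p-values of 0.000226 to 0.0214. At RT its log2 fold change was 0.10 ± 0.13 (adjusted p = 1).

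Pdk4, the kinase isoform of fasting and fat use, had 1444, 1428, 1318 and 1483 CPM in KO cold, 1393, 1127, 702 and 1436 in control cold, 519, 729 and 885 in KO RT, and 547 and 709 in control RT. All cold libraries but control cold 3 were above all RT libraries, and the genotypes overlapped at each temperature. KO and control differed by 0.28 ± 0.19 (adjusted p = 0.433) in the cold and by 0.18 ± 0.25 (adjusted p = 1) at RT on the log2 scale. Pdk1, a kinase isoform known as a target of hypoxia signalling, had 77.7, 42.3, 45.6 and 72.2 CPM in KO cold, 93.3, 98.2, 82.4 and 73.4 in control cold, 134, 115 and 146 in KO RT, and 138 and 115 in control RT. KO cold held the lowest values but overlapped control cold through KO cold 1, while the KO RT and control RT ranges overlapped. The difference in the cold was -0.55 ± 0.18 (adjusted p = 0.0869), and it passed without KO cold 1 (adjusted p = 0.0464) and with no filter on low counts (0.0148), within a range of 0.0148 to 0.237 over the 19 alternatives. The fourth kinase gene, Pdk3, had 0.612, 1.57, 1.69 and 2.82 CPM in KO cold, 2.88, 1.85, 2.48 and 3.53 in control cold, 4.56, 3.44 and 2.62 in KO RT, and 1.84 and 4.22 in control RT, too few counts to compare.

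**Figure D2:**
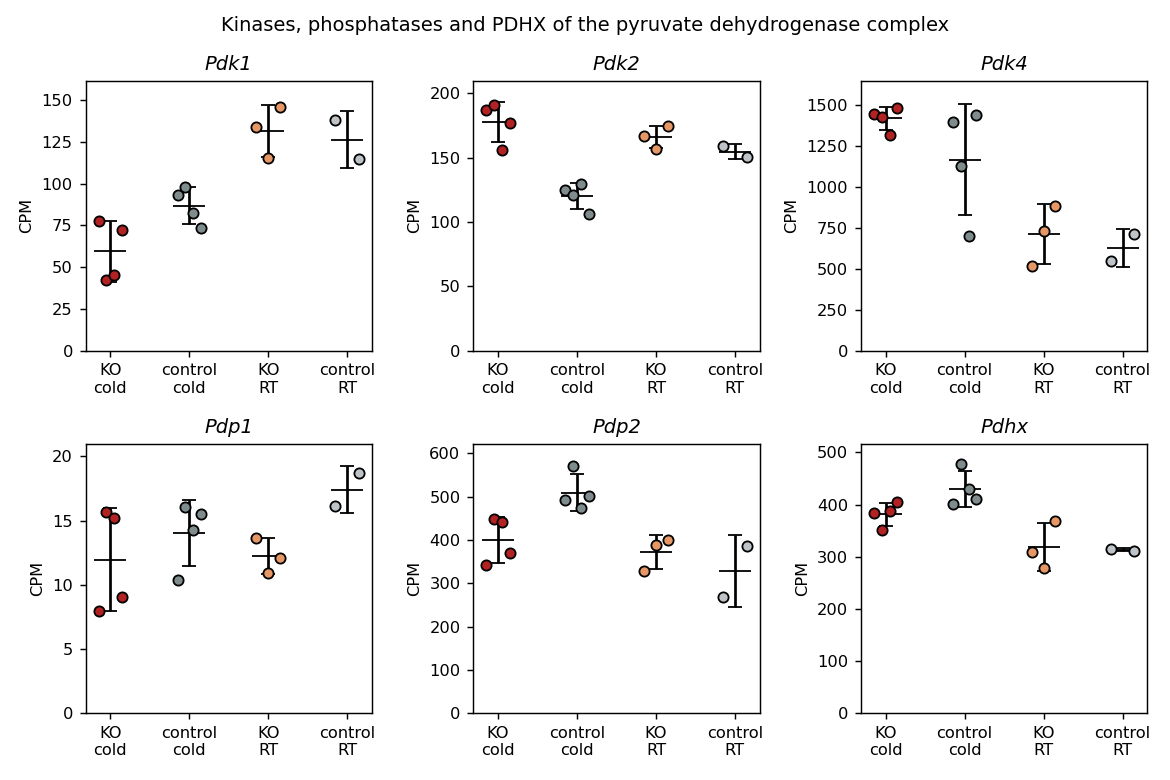
CPM in each library (points) for the PDH kinase genes Pdk1, Pdk2 and Pdk4, the phosphatase genes Pdp1 and Pdp2 and the subunit gene Pdhx, with the group mean and SD (bars), for KO cold, control cold, KO RT and control RT from left to right. The 4 KO cold points for Pdk2 sit above the 4 control cold points, and cold points for Pdk4 sit above RT points except for 1 control cold library.

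In KO tissue Pdk4 rose and Pdk1 fell in the cold, and Pdk2 passed between the genotypes in the cold. The sequences around the starts of these 3 kinase genes are therefore shown. Each is the first RefSeq window listed for the gene, 250 bases before and 50 after the start, 5′ to 3′ in the gene's direction, in the build GRCm38.p6; the submitters' processing notes name GRCm39 for the counts. Capitals mark matches to the letters searched on both strands: TGACGTCA (the cyclic AMP response element, CRE), TNAAGGTCA (oestrogen-related receptor), TGTTTAC (forkhead box O) and ACGTG (hypoxia response core). Pdk1 lies at chr2:71872974-71873273 on the plus strand, Pdk2 at chr11:95041322-95041621 on the minus strand and Pdk4 at chr6:5496229-5496528 on the minus strand.
Pdk1: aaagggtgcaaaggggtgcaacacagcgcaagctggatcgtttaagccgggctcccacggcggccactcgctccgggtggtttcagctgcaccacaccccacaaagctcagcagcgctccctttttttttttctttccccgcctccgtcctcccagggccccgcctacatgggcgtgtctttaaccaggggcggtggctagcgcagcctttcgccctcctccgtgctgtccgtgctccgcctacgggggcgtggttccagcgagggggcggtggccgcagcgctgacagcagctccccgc
Pdk2: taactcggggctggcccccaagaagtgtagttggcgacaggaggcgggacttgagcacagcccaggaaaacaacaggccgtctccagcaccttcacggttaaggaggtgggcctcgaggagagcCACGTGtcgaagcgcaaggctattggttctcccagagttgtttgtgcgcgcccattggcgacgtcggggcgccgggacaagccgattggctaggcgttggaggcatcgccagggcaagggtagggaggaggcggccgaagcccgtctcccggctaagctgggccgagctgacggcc
Pdk4: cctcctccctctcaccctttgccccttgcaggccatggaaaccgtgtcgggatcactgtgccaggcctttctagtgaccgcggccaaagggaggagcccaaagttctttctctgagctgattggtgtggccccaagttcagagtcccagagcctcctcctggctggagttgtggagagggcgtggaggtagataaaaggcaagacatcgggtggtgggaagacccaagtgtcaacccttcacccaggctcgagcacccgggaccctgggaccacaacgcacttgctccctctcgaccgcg
The windows of Pdk1 and Pdk4 held none of these letters. The Pdk2 window held CACGTG, which counts as 2 overlapping matches to ACGTG because it reads the same on both strands. Windows were found for 33 of the 35 genes, 47 in all; Idh3a and Pdp1 had no entry. ACGTG was in the windows of 12 of the 33 genes (36.4%), against 21.8% of 27025 genes with a window, which had 32851 windows. A gene was counted if any of its windows held a match, so genes with more windows had more chances to match. TNAAGGTCA was in 1 of 33, Tpi1 (3.03%, against 1.43%), and TGTTTAC in 0 of 33 (against 4.05%). A match is a description of letters, not of a bound site.

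The phosphatase gene Pdp2, whose product reactivates the PDH complex, had 343, 449, 443 and 369.6 CPM in KO cold, 492, 571, 473 and 502 in control cold, 329, 389 and 401 in KO RT, and 269 and 387 in control RT. All KO cold libraries were below all control cold libraries, but the log2 fold change of -0.35 ± 0.13 (adjusted p = 0.129) did not pass. Mpc2, which encodes a subunit of the mitochondrial pyruvate carrier, had 1394, 1035, 1190.4 and 1385 CPM in KO cold, and 1458, 2229, 1993 and 1477 in control cold. Its groups in the cold did not overlap, and control cold 2 and 3 were the highest. The log2 fold change was -0.52 ± 0.15 (adjusted p = 0.0543) and did not pass, whereas DESeq2 gave an adjusted p of 0.0317, and over the 19 alternatives it ran from 0.000456 to 0.164. It also passed with no filter on low counts, without control cold 1 (log2 fold change -0.60, adjusted p = 0.0388), without control cold 4 (0.0373), and without control RT 1 (0.0471) or 2 (0.0447). Its partner subunit Mpc1 was at 56.4 ± 14.9 CPM in KO cold, against 77.7 ± 18.8 CPM in control cold (SD, n = 4 each; -0.47 ± 0.22, adjusted p = 0.256).

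Fh1, the fumarase that turns fumarate into malate, had 420.4, 694, 541 and 725 CPM in KO cold, and 738, 958, 796 and 815 in control cold. KO cold 1 was the lowest library, and the highest KO value stayed below the lowest control value. Its log2 fold change was -0.47 ± 0.14 (adjusted p = 0.0621); the gene passed with DESeq2 (adjusted p = 0.0399), with no filter (0.00498) and without KO cold 4 (0.0376), within a range of 0.00498 to 0.158. Mpc2 and Fh1 are given by library because of these alternatives, a choice made after their values were seen. Among glycolytic enzymes, Aldoa, the aldolase that splits fructose bisphosphate, had 1441, 1101, 1132 and 1494 CPM in KO cold, 1635, 1970.3, 1565 and 1775 in control cold, 1053, 913 and 1109.6 in KO RT, and 1478 and 1019.7 in control RT. The genotypes did not overlap in the cold, though KO cold 1 and 4 came close to the lowest control libraries. The log2 fold change was -0.43 ± 0.13 (adjusted p = 0.0704), and it passed with no filter (0.00879), without control RT 1 (0.0467) and without control RT 2 (0.0448), within a range of 0.00879 to 0.195. Idh3a, the catalytic subunit of NAD-dependent isocitrate dehydrogenase, had 1003, 957, 1005 and 994 CPM in KO cold, 1085, 1355, 1112 and 1120.2 in control cold, 759.8, 746 and 887 in KO RT, and 874 and 829.8 in control RT. Control cold 2 stood well above every other library, each KO cold library was below each control cold library, and the log2 fold change was -0.24 ± 0.10 (adjusted p = 0.159).

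The other 8 glycolytic and lactate genes gave log2 fold changes of -0.45 to -0.03, all with overlapping libraries. Gapdh, the glyceraldehyde-3-phosphate dehydrogenase, was at 179 ± 53.5 CPM in KO cold, against 244 ± 59.0 CPM in control cold (SD, n = 4 each; -0.45 ± 0.22, adjusted p = 0.273), and with no filter on low counts its adjusted p was 0.0261, within a range of 0.0261 to 0.568. Eno1, an enolase, was at 106 ± 26.3 CPM in KO cold, against 139 ± 26.1 CPM in control cold (-0.39 ± 0.18, adjusted p = 0.23), and Ldha, the lactate dehydrogenase subunit that favours lactate, at 739 ± 149.8 CPM in KO cold, against 944 ± 162 CPM in control cold (-0.35 ± 0.14, adjusted p = 0.16). Gapdh tags could be shared with near-identical 3′ ends of 120 other genes, and Eno1 tags with Eno1b (2192 counts over all libraries, against 2972 for Eno1), so both values are uncertain. Of the PDH subunits, Pdha1, the catalytic E1 alpha subunit that the kinases phosphorylate, was at 1150.0 ± 162 CPM in KO cold, against 1394 ± 158 CPM in control cold (SD, n = 4 each; -0.28 ± 0.12, adjusted p = 0.208); the other 4 subunits Pdhb, Dlat, Dld and Pdhx gave log2 fold changes of -0.17 to -0.08.

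In the TCA cycle, Ogdh, the E1 subunit of oxoglutarate dehydrogenase, had 925, 824, 876 and 836 CPM in KO cold, 786, 806, 803 and 804 in control cold, 653, 664 and 746 in KO RT, and 714 and 647 in control RT. KO cold and control cold did not overlap but were close, and the log2 fold change was 0.11 ± 0.09 (adjusted p = 0.504). Idh2, the NADP-dependent mitochondrial isocitrate dehydrogenase, gave 0.33 ± 0.13 (adjusted p = 0.157) and passed without control cold 4 (adjusted p = 0.0239, range over alternatives 0.0239 to 0.313). It was at 404 ± 20.2 CPM in KO cold, against 322 ± 66.0 CPM in control cold (SD, n = 4 each). The other subunits of isocitrate dehydrogenase 3 (Idh3b and Idh3g), the E2 subunit of oxoglutarate dehydrogenase (Dlst) and the succinyl-CoA synthetase subunits (Sucla2, Suclg1 and Suclg2) gave log2 fold changes of -0.02 to 0.09 between KO and control in the cold and -0.13 to 0.04 at RT. In the responses to cold these 6 genes gave -0.21 to 0.19 in KO and -0.25 to 0.15 in control tissue, with 0 passing in any comparison.

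Fibroblast and macrophage markers also had lower values in KO cold. All 5 fibroblast markers and all 6 macrophage markers tested had log2 fold changes below 0 in KO cold over control cold, with 0 passing in either list. Fibroblast markers summed to 505 to 602 CPM in KO cold and to 466 to 1369 CPM in control cold, with the highest value in control cold 2; macrophage markers summed to 95.9 to 119 CPM in KO cold, against 84.9 to 263 CPM in control cold, again highest in control cold 2. No marker of either list was at 0 over a group. Markers of other cells lay mostly above 0 in KO cold over control cold, with 5 of 5 erythrocyte, 4 of 5 endothelial and 12 of 14 skeletal muscle markers above 0 and 0 passing in these lists. The part of any of these cells in the lower values of glycolytic genes or in the higher Pdk2 values was not tested. The edgeR fit without control cold 2, where Pdk2 gave 0.56 (adjusted p = 0.0133), held no term for cell content and cannot decide this.

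At RT, 0 of the 34 genes passed between KO and control, as did 0 of all 11073 genes (0%). At an unadjusted p under 0.05 there were 0 of the 34 and 346 of all genes (3.12%), and DESeq2 called 0 of the 34 and 3 of all genes. The log2 fold change was below 0 for 20 of the 34 genes (49.9% of all genes), with a median of -0.07, against 0.00 for all genes. Lower glycolysis and lactate genes lay mostly below 0 at RT too, with 8 of 9 and a median of -0.18. The medians were 0.03 for pyruvate entry, -0.05 for the PDH subunits, 0.10 for the kinases and phosphatases and -0.04 for the TCA cycle. KO and control libraries did not overlap for 5 genes, Gpi1, Tpi1, Pdp1, Cs and Fh1, all lower in KO, against 7.96% of all genes; 0 were higher in KO, against 8.68% of all genes. Control RT had 2 libraries only. The widest differences, picked out after their values were seen, were -0.50 ± 0.30 (adjusted p = 1) for Pdp1, a low-count PDH phosphatase gene at 12.2 ± 1.39 CPM in KO RT and 17.4 ± 1.83 CPM in control RT (SD, n = 3 and n = 2), and -0.44 ± 0.36 (adjusted p = 1) for Pgam1, a phosphoglycerate mutase.

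The response to cold in control tissue held 7 of the 34 genes (20.6%, against 25.2% of all genes). 6 rose, against 12.7% of all genes: Pdk4, Pgk1, Pdp2, Aldoa, Pdhx and Idh3a; 1 fell, against 12.6%: Pdk2. At an unadjusted p under 0.05 there were 13 of the 34 (37.6% of all genes). The log2 fold change of cold over RT was below 0 for 11 of the 34 genes (51.1% of all genes), with a median of 0.13, against -0.02 for all genes. Control cold and control RT libraries did not overlap for 11 genes that were higher in cold (19.8% of all genes) and 5 that were lower (20.6%), Pcx, Pdk1, Pdk2, Pdp1 and Suclg2. Pdk4 averaged 1165 ± 337 CPM in control cold and 628 ± 115 CPM in control RT (SD, n = 4 and n = 2), a log2 fold change of 0.89 ± 0.24 (adjusted p = 0.0132). Pdp2 gave 0.64 ± 0.16 (adjusted p = 0.00886), with control cold at 473 to 571 CPM and control RT at 269 and 387 CPM. Pdk4 and Pdp2 transcripts were thus both higher in control cold than in control RT, with no overlap for Pdp2 and with control cold 3 inside the RT range for Pdk4. The other kinase and phosphatase genes tested lay below 0: Pdk1 at -0.54, Pdk2 at -0.36 and Pdp1 at -0.31.

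Pgk1, the phosphoglycerate kinase that makes ATP in lower glycolysis, had 66.7, 50.1, 57.9 and 66.0 CPM in KO cold, 63.9, 79.1, 81.2 and 67.8 in control cold, 51.2, 39.6 and 48.3 in KO RT, and 52.9 and 32.5 in control RT. The log2 response in control tissue was 0.76 ± 0.20 (adjusted p = 0.0113), and control RT 2 was the lowest library. Pdhx, which encodes the protein that anchors E3 in the PDH complex, had 384, 351, 387 and 404 CPM in KO cold, 401, 477, 429 and 411 in control cold, 309, 278 and 368 in KO RT, and 315 and 312 in control RT. Its log2 response in control tissue was 0.45 ± 0.13 (adjusted p = 0.0175). For Aldoa it was 0.47 ± 0.17 (adjusted p = 0.0458). Control cold libraries were above control RT libraries for all 3 genes, with control RT 1 well above control RT 2 for Pgk1 and Aldoa. Idh3a gave 0.46 ± 0.12 (adjusted p = 0.0106), again with no overlap. Both control RT libraries were above every control cold library for Pdk2, which gave -0.36 ± 0.13 (adjusted p = 0.0488).

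These calls in control tissue depended on the 2 control RT libraries. Without control RT 1 the adjusted p was 0.201 for Pdp2, 0.16 for Pdk4, 0.115 for Pdhx, 0.067 for Idh3a and 0.251 for Pdk2. Without control RT 2 it was 0.134 for Pgk1 and 0.385 for Aldoa, whose log2 fold change was then 0.25, and 0.0715, 0.0624 and 0.115 for Pdhx, Idh3a and Pdk2. Over the 19 alternatives the adjusted p ran from 0.000628 to 0.201 for Pdp2, 5.58e-08 to 0.16 for Pdk4, 0.00261 to 0.134 for Pgk1, 0.00616 to 0.385 for Aldoa, 0.00674 to 0.115 for Pdhx, 0.00211 to 0.0688 for Idh3a and 0.0194 to 0.251 for Pdk2. The calls of Aldoa and Pdk2 were close to the threshold and were also lost without most other single libraries, including each KO RT library and control cold 1, 2 or 4, KO cold 1 and, by gene, KO cold 3 for Aldoa and KO cold 2 or 4 for Pdk2. The adjusted p was then 0.0507 to 0.0925 for Aldoa and 0.0554 to 0.101 for Pdk2. Skeletal muscle markers were lower in control cold than in control RT for 14 of 14 genes, of which 8 passed (12.6% of all genes passed as lower). Control RT 1 held 2626 CPM of these markers against 28.3 CPM in control RT 2. Their part in these responses was not tested.

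**Figure D3:**
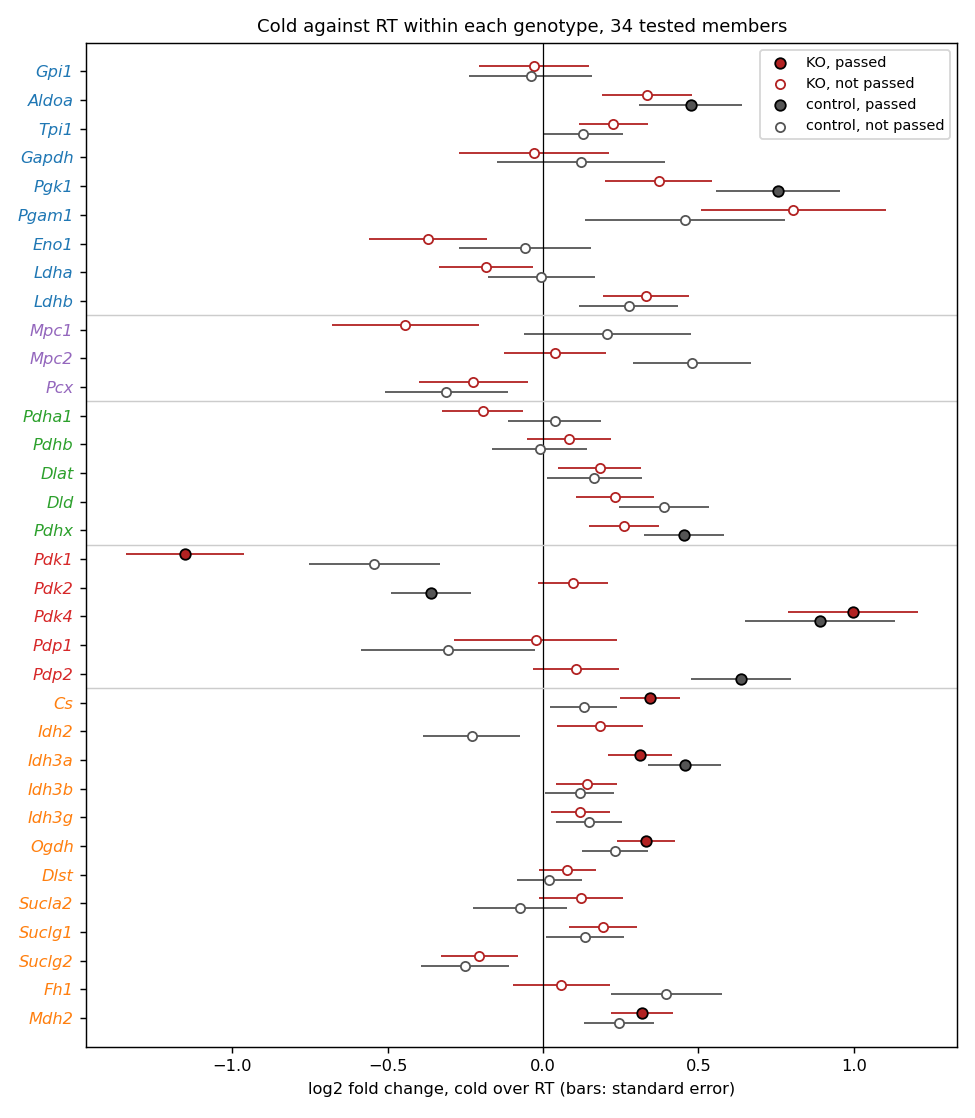
Log2 fold change of cold over RT (x axis) with its standard error for the 34 tested genes, arranged by role, in KO and in control tissue. Filled markers show genes with an adjusted p under 0.05; Pdk4 and Idh3a are filled in both genotypes.

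In KO tissue 6 of the 34 genes passed (17.6%, against 18.9% of all genes). Pdk4, Cs, Idh3a, Ogdh and Mdh2 rose (9.43% of all genes rose) and Pdk1 fell (9.45% fell). At an unadjusted p under 0.05 there were 11 of the 34 (32.3% of all genes). The log2 fold change was below 0 for 10 of the 34 genes (50.9% of all genes), with a median of 0.12, against -0.01 for all genes. KO cold and KO RT libraries did not overlap for 9 genes that were higher in cold (15.8% of all genes) and 2 that were lower (16.4%), Pdk1 and Suclg2. Pdk1 averaged 59.4 ± 18.1 CPM in KO cold, against 132 ± 15.4 CPM in KO RT (SD, n = 4 and n = 3), with no overlap and a log2 fold change of -1.15 ± 0.19 (adjusted p = 0.000552). Pdk4 averaged 1418 ± 70.7 CPM in KO cold, against 711 ± 184 CPM in KO RT, again with no overlap, and gave 1.0 ± 0.21 (adjusted p = 0.00327). These 2 kinase genes passed in each of the 19 alternatives, with adjusted p-values of 3.49e-10 to 0.00425 for Pdk1 and 5.57e-13 to 0.0269 for Pdk4. In control tissue Pdk1 gave -0.54 ± 0.21 (adjusted p = 0.0681).

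The other 4 genes that rose in KO tissue belong to the TCA cycle. Cs, the citrate synthase that condenses acetyl-CoA with oxaloacetate, had 1159.7, 1023, 1122 and 1049 CPM in KO cold, 939, 1097, 986 and 1088 in control cold, 806, 871 and 895 in KO RT, and 964 and 914 in control RT. Its log2 response in KO tissue was 0.34 ± 0.10 (adjusted p = 0.0194). That of Ogdh was 0.33 ± 0.09 (adjusted p = 0.0196). Mdh2, the mitochondrial malate dehydrogenase, had 1012, 969, 986 and 977 CPM in KO cold, 924, 1103, 999 and 913 in control cold, 771, 772 and 829.8 in KO RT, and 899 and 761 in control RT, with a log2 response in KO tissue of 0.32 ± 0.10 (adjusted p = 0.0333). Every KO cold library was above every KO RT library for these 3 genes and for Idh3a, which gave 0.31 ± 0.10 (adjusted p = 0.045). All 4 calls were lost without KO RT 1, with adjusted p-values of 0.106 for Cs, 0.102 for Ogdh, 0.125 for Mdh2 and 0.17 for Idh3a. Without KO RT 2 they were 0.0537 for Cs, 0.0799 for Ogdh, 0.108 for Mdh2 and 0.167 for Idh3a. Without KO cold 1 they were 0.0563 for Cs, 0.0589 for Ogdh, 0.0741 for Mdh2 and 0.0879 for Idh3a. Mdh2 and Idh3a were also lost without KO cold 2, 3 or 4 (adjusted p of 0.0518 to 0.067 for Mdh2 and 0.0656 to 0.0914 for Idh3a), and Cs without KO cold 3 (0.0523). Over the 19 alternatives the adjusted p was 0.00399 to 0.106 for Cs, 0.00249 to 0.102 for Ogdh, 0.0121 to 0.125 for Mdh2 and 0.0225 to 0.17 for Idh3a. Fibroblast markers fell in KO cold for 4 of 5 genes (9.45% of all genes fell), with sums of 505 to 602 CPM in KO cold and 627 to 1275 CPM in KO RT. Muscle markers were lower for 14 of 14 genes, of which 2 passed. The part of either list was not tested.

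**Figure D4:**
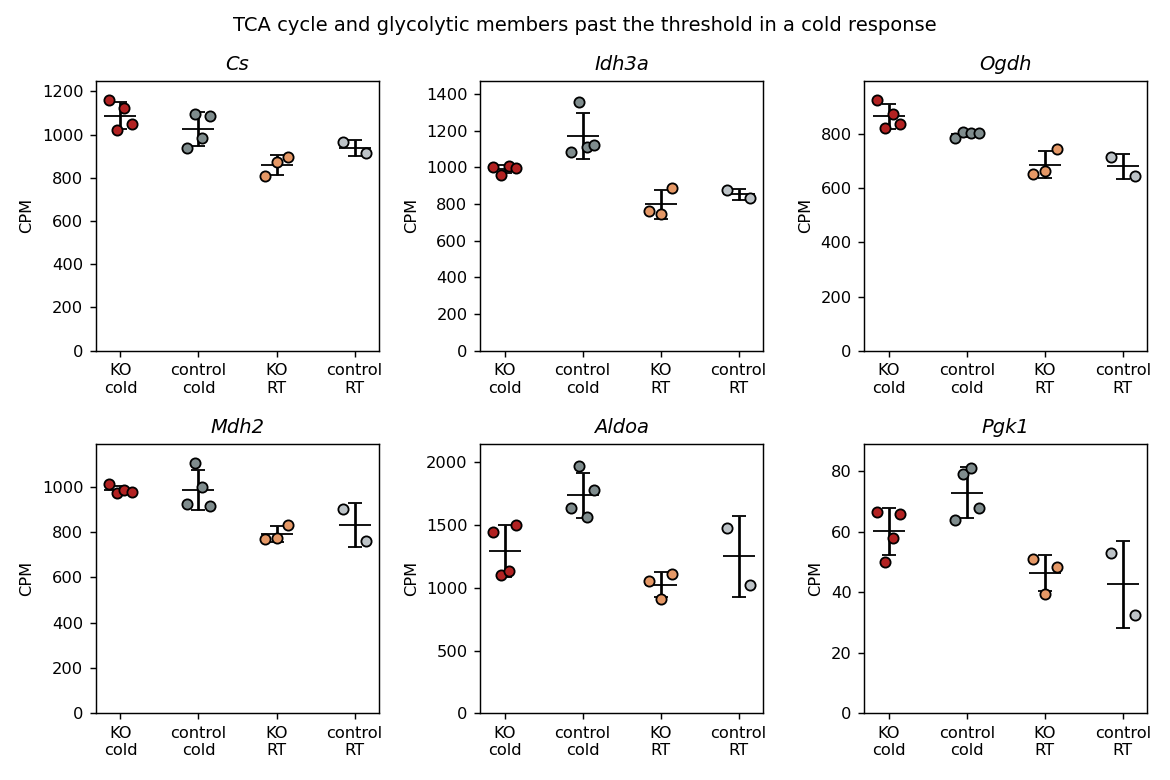
CPM in each library (points) with the group mean and SD (bars) for Cs, Idh3a, Ogdh, Mdh2, Aldoa and Pgk1, for KO cold, control cold, KO RT and control RT from left to right. For Cs, Idh3a, Ogdh and Mdh2 all 4 KO cold points lie above the 3 KO RT points, and for Aldoa the KO cold points lie below the control cold points.

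The first RefSeq windows of Ogdh and Mdh2 are shown because both genes rose in the cold in KO tissue and both hold the CRE letters TGACGTCA, in capitals, which read the same on both strands. Ogdh lies at chr11:6291347-6291646 on the plus strand and Mdh2 at chr5:135778399-135778698 on the plus strand, both in GRCm38.p6.
Ogdh: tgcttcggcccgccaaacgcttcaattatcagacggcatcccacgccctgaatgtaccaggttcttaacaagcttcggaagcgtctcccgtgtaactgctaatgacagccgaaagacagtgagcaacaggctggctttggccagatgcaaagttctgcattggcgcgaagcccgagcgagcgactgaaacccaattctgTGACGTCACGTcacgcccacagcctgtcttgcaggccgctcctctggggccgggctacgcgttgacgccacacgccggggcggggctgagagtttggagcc
Mdh2: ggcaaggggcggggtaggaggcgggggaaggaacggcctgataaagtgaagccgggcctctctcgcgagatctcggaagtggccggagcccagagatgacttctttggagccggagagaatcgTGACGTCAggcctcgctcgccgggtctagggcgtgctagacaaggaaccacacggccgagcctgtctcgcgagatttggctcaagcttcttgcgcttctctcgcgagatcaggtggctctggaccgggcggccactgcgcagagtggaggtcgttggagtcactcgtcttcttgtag
In Ogdh the CRE letters begin at position -51 from the start and share 2 bases with a match to ACGTG; in Mdh2 they begin at position -127. Of the 33 genes with a window, 3 held TGACGTCA in any of their windows (9.09%, against 2.03% of all genes with a window). The third was Ldha, which did not pass in any comparison. Cs, Pdk4, Pgk1, Pdhx, Pdp2 and Aldoa, which rose in the cold in KO or control tissue, held no TGACGTCA in their windows.

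The cold responses of the genotypes were set against each other in 1 further contrast, KO minus control, and 0 of the 34 genes passed; 2 of all 11073 genes did (0.0181%). At an unadjusted p under 0.05 there were 3 of the 34 and 8.25% of all genes, and DESeq2 called 0 of the 34. The difference was below 0 for 15 of the 34 genes (49.7% of all genes). The 3 genes were Pdk2, Pdp2 and Pdk1. Pdk2 differed by 0.46 ± 0.17 (adjusted p = 0.493): its log2 response was 0.10 in KO and -0.36 in control. Pdp2 differed by -0.53 ± 0.21 (adjusted p = 0.52), with responses of 0.11 in KO and 0.64 in control. Pdk1 differed by -0.61 ± 0.29 (adjusted p = 0.604), with -1.15 in KO and -0.54 in control. For Cs, Ogdh and Mdh2, called in KO tissue alone, the differences were 0.21 ± 0.14 (adjusted p = 0.758) for Cs, 0.10 ± 0.14 (adjusted p = 0.904) for Ogdh and 0.07 ± 0.15 (adjusted p = 0.941) for Mdh2, so the data did not show that their responses differed between the genotypes. The comparisons within the cold share libraries with the cold responses, so their values stand side by side and are not independent.

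**Figure D5:**
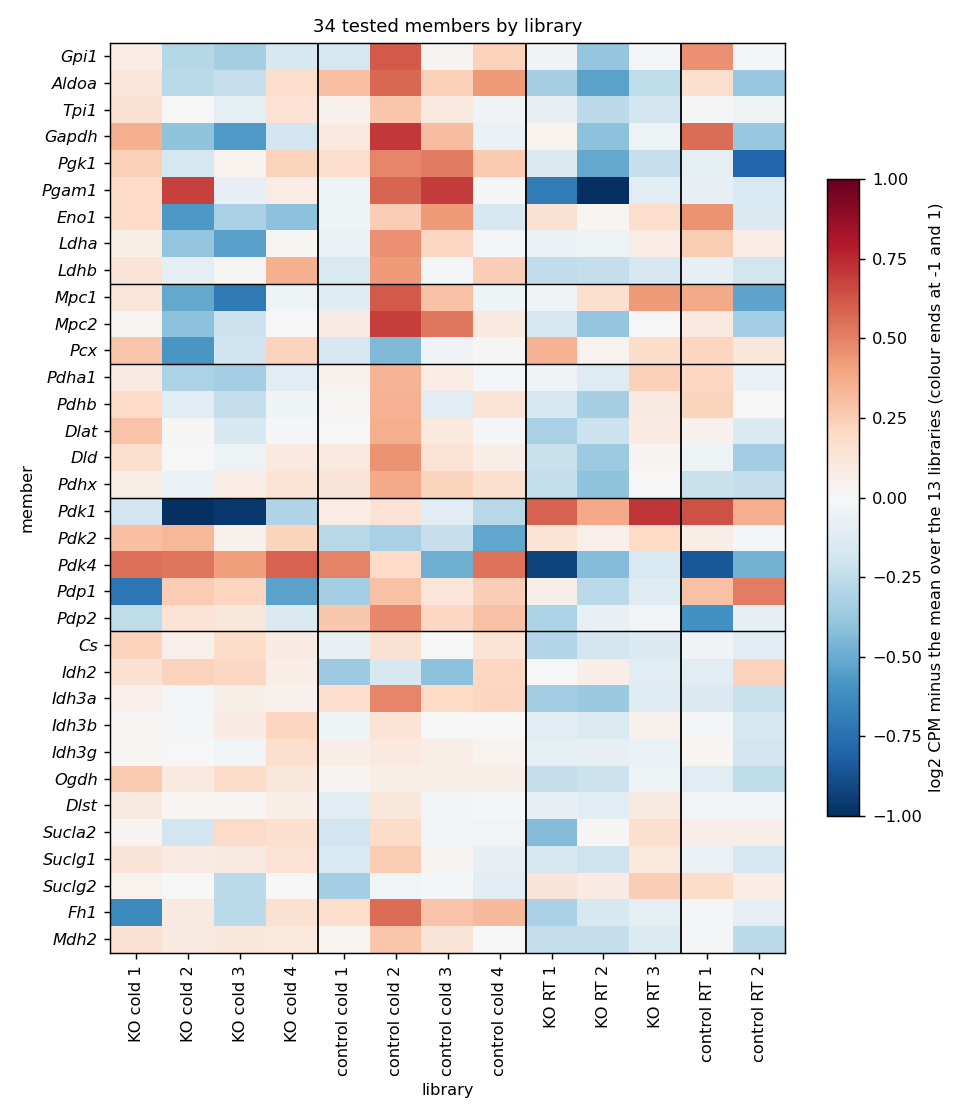
Log2 CPM of each of the 34 tested genes (rows, by role) in the 13 libraries (columns, KO cold, control cold, KO RT and control RT), centred on the gene's mean. Rows of lower glycolysis are highest in control cold 2 for most genes, and Pdk1 and Pdk4 run in opposite directions between cold and RT.

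Genes next to these in the same pathways were counted from further lists, beside 2.44% of all genes that rose and 3.49% that fell in KO cold over control cold. Here rose and fell mean higher and lower in KO cold than in control cold, not a response to cold. Of 11 upper glycolysis genes tested, 0 rose and 5 fell in KO cold over control cold, with a median log2 fold change of -0.64, against -0.01 for all genes; those with the smallest p were Hk2 (-1.01 ± 0.10, adjusted p = 1.58e-05), Pfkl (-1.01 ± 0.14, adjusted p = 0.000427), Pfkp (-0.64 ± 0.14, adjusted p = 0.0103) and Hk1 (-0.91 ± 0.20, adjusted p = 0.0122), hexokinases and phosphofructokinases. Of 8 other lower glycolysis and lactate genes, 1 fell: Pkm, the pyruvate kinase that closes glycolysis, averaged 259.6 ± 42.1 CPM in KO cold, against 384 ± 68.1 CPM in control cold (SD, n = 4 each; -0.57 ± 0.14, adjusted p = 0.0207). No gene passed among 6 other PDH and lipoylation genes or among 13 other TCA cycle genes. Of 16 genes of anaplerosis and citrate use, 2 fell: Acss1, which makes acetyl-CoA from acetate in mitochondria (-1.09 ± 0.15, adjusted p = 0.000439), and Got1, the cytosolic aspartate aminotransferase (-0.61 ± 0.16, adjusted p = 0.0308). Among 14 transcriptional regulators, Perm1 (-1.33 ± 0.21, adjusted p = 0.00119) and Ppargc1a (-2.11 ± 0.42, adjusted p = 0.00714), both inducers of mitochondrial genes, fell, and Ppara, a receptor that drives fatty acid oxidation genes, rose (0.81 ± 0.18, adjusted p = 0.0145).

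The cold responses of these lists stand beside 9.43% of all genes that rose and 9.45% that fell in KO tissue, and 12.7% that rose and 12.6% that fell in control tissue. The regulators rose for 4 and fell for 0 of 14 genes in KO tissue, and rose for 5 and fell for 2 in control tissue. The 2 that fell were Ppara (-0.80 ± 0.21, adjusted p = 0.0120) and Epas1 (-0.41 ± 0.13, adjusted p = 0.0289). Of the genes named in this paragraph, all but Got1 and Ppara were chosen after their values were seen. Foxo1, a factor known to induce Pdk4, rose by 1.49 ± 0.23 (adjusted p = 0.00033) in KO and 1.05 ± 0.26 (adjusted p = 0.00767) in control on the log2 scale. Hif1a, known to induce Pdk1, rose by 0.49 ± 0.12 (adjusted p = 0.00664) in KO and 0.66 ± 0.13 (adjusted p = 0.00198) in control. Pdk1 itself was lower in the cold, at -1.15 in KO, which passed, and -0.54 in control, which did not. Whether these factors acted on Pdk4 or Pdk1 was not tested. Of the 13 other TCA cycle genes, 0 rose and 3 fell in KO, and 1 rose and 3 fell in control: Aco1, the cytosolic aconitase, fell by 1.38 ± 0.17 in KO (adjusted p = 5.26e-05) and by 1.31 ± 0.19 in control (adjusted p = 0.000161), while Sdhb, the iron-sulphur subunit of succinate dehydrogenase, rose in control (0.93 ± 0.15, adjusted p = 0.000478). Upper glycolysis genes rose for 3 and fell for 1 of 11 in KO, and rose for 5 and fell for 2 in control. Of the 16 anaplerosis genes, 1 rose and 2 fell in KO, and 2 rose and 2 fell in control; Got1 rose by 3.42 ± 0.22 (adjusted p = 1.42e-07) in KO and 3.38 ± 0.25 (adjusted p = 8.20e-07) in control. Of the 8 other lower glycolysis and lactate genes, 1 rose and 1 fell in KO, and 1 rose and 3 fell in control; the 3 were Slc16a7, a monocarboxylate transporter, and the muscle isoforms Eno3 and Pgam2, which also count among the muscle markers.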

How the data were processed

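QuantSeq 3′ libraries of 13 brown adipose tissue samples were sequenced, per the labels' protocols. The authors deposited raw gene counts, unscaled, under Ensembl identifiers. Tools in the submitters' processing notes are STAR 2.7.10b, HTSeq 0.12.3, Trim Galore 0.6.7 and UMI-tools 1.1.2, besides limma and edgeR, with the build GRCm39 and no role or order given. Use of molecular identifiers and of strand in counting is not given in the sources used here, so overlapping and antisense genes cannot be separated, and all samples carry 1 batch label. Of 55632 lines, 275 repeated an identifier and were dropped. Rows without a symbol held at most 0.282% of a library's counts. Aldoa had a second identifier with 1 count, which was not tested.

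The fits used edgeR 4.0.16 under R 4.3.3: filterByExpr (minimum count 10), TMM scaling, and glmQLFit and glmQLFTest with 1 coefficient per group over 13 libraries and 5 contrasts. Adjusted p-values are Benjamini-Hochberg over all 11073 genes, with a threshold of 0.05; standard errors are the fold change over the root of F. The steps were tested on simulated data for KO over control in the cold. The simulation changed fewer genes than the 657 that passed in this contrast, in KO cold alone, from a base level shared by all groups. Recovery in the measured data may therefore differ. Of the genes changed 1.5-fold in the simulation, 23.2% passed in the right direction, against 62.7% at 2-fold and 87.7% at 3-fold. A gene that did not pass may therefore still differ. The biological coefficient of variation was 16.1%. Libraries of a group correlated at 0.938 to 0.975 in log2 CPM, and no replicate pair agreed within sampling noise. All 35 genes could be named; by rule, each library's value was given for genes that passed a contrast and for the 4 kinases, and from each further list values for the up to 4 genes with the smallest p among those that passed between KO and control in the cold. The members and lists were chosen with earlier results of these data known. Alternatives were DESeq2 1.42.0, its size factors (RLE) in edgeR, a minimum count of 30, no filter, a fit to the groups compared only, a replicate block and leaving out each library.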

Additional observations from a re-analysis of the deposited data

Results flagged for a closer look

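In each group of 4, the highest and lowest library were compared with the others over 70 pairs of a gene and a group. In 2 of the 70 pairs a library stood apart, no more than the share of about 5% of groups that chance flags. Idh3a was at 1355 CPM in control cold 2, while the other control cold libraries held 1085 to 1120 CPM. Suclg2, a subunit of the GTP-forming succinyl-CoA synthetase, was at 69.8 CPM in KO cold 3, while the other KO cold libraries held 83.5 to 85.7 CPM.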

How the results depend on the processing

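Of the 34 genes, 1 passed between KO and control in the cold (5.93% of all genes passed). With DESeq2, 3 passed (Pdk2, Mpc2 and Fh1), against 6.11% of all genes. With no filter on low counts, 6 passed (these and Aldoa, Gapdh and Pdk1), against 4.29% of the 22904 genes then tested. With a replicate block, 2 passed (Pdk2 and Fh1), against 5.09%. Leaving out single KO cold, control cold or KO RT libraries gave 1 to 3, against 3.54% to 5.46% of all genes. The count stayed at 0 at RT and for the difference of the cold responses under every alternative run. For cold over RT in control tissue, 7 genes passed (25.2% of all genes). In a fit to the groups compared only, 3 passed (16.2% of all genes), and with a replicate block 4 (19.2%). The calls in control tissue also depended on the 2 control RT libraries, as given above. In KO tissue, 6 passed (18.9% of all genes), against 3 with a replicate block (14.7%) and 2 to 8 without single libraries (11.1% to 20.1%). Same-numbered samples did not deviate together in every pair: correlations of their deviations were -0.16 to 0.14 over 4 pairs in the cold, 0.33 and -0.01 over 2 pairs at RT, and -0.15 to 0.09 over 5 pairs of cold and RT samples within a genotype. The numbers were therefore not taken as pairs. Signs reversed for uncalled values when single libraries were left out: the log2 fold change of KO over control at RT ran from -0.0653 to 0.195 for Pdk1 and -0.0166 to 0.385 for Pdk4, and the difference of the cold responses from -0.0943 to 0.306 for Pdk4. Over all genes, the count in the cold between genotypes was 657, against 392 to 425 without any 1 of the KO cold libraries and 438 without control cold 2. The count for control tissue was 2793, against 1685 in a fit to the groups compared and 1067 without control RT 1. In KO tissue it was 2090, against 1219 without KO RT 1. For KO over control at RT it was 0, against 50 with no filter, and for the difference of the responses 2, against 133 with no filter, 29 with DESeq2 and 0 with the block. Depth limits Pdk3, Pdp1 and Pgam1, and 2 control RT libraries limit each value at RT. The causes were not tested.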
